A study of Drosophila melanogaster with 6 samples.

Results

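The subunit genes of the vacuolar-type H+-ATPase (V-ATPase) were examined in whole Drosophila embryos with and without ectopic Sage. Members were the genes whose symbol starts with Vha in the probe-to-gene table, each read by its brightest probe set paired with 1 gene alone. There were 31 such genes among 11982 measured, and 32 probe sets among 18769 tested. The gene table of the Release 6 assembly lists 33 genes with this prefix. Vha68-1 and Vha68-2, which encode the A subunit, had no probe set of their own in that table and were not analysed here.

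RNA came from embryos of stages 11 to 16, aged at 25 °C and sorted on a COPAS instrument. Wild type embryos were of the Oregon R strain (3 arrays). Sage overexpression embryos carried UAS-Sage under the tub-Gal4 driver, active in most cells, with Oregon R given as their background too (3 arrays). Sage is a bHLH factor normally made in the salivary gland of the embryo. Embryos with the driver or the transgene alone were not analysed here, and the labels give neither the number of embryos per sample nor separate cultures. The p-values therefore reflect the spread among these arrays alone, which may be technical.

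The V-ATPase is a rotary proton pump. Its cytosolic V1 sector hydrolyses ATP and turns a central stalk, and its membrane V0 sector passes protons through a rotating ring of c subunits beside the a subunit. The pump acidifies lysosomes, endosomes and secretory vesicles in nearly every cell, and in insect epithelia such as the Malpighian tubule it sits in the plasma membrane and powers ion transport. In Drosophila several subunits are encoded by more than one gene. Usually one of these isoforms is used in most tissues, and others are restricted, some of them to the male germ line. Of the 31 genes measured, 13 are called widely used here (12 subunit genes and the accessory gene VhaAC45) and 18 are called other isoforms.

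The values were log2 RMA values, and with 3 arrays a group their number limits the precision. Array medians over all tested probe sets lay between 5.44 and 5.52, and correlations between arrays of different groups lay between 0.960 and 0.983. Sage RNA, the check of the transgene, stood at 7.72 ± 0.34 (SD, n = 3) in wild type and 12.25 ± 0.07 with UAS-Sage. Group means of 70 control probe sets assumed to match no fly transcript ran from 3.23 to 5.35, and a gene whose group means both lay at or below 5.35 is described as within the control range. The polyA spike-in controls were lower on the Sage arrays for 24 of 24 probe sets, by -1.65 on the log2 scale at the median. At the 5′ end of actin, GAPDH and eIF-4a the control probe sets differed by -1.38, -1.21 and -1.21 on the log2 scale, and at the 3′ end by -0.09, -0.38 and -0.39. RNA quality or labelling and genotype cannot be told apart in this design, and their part in the results below was not tested.

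Among V-ATPase genes 1 stood out between the genotypes. Vha100-5, one of 5 genes for the a subunit, rose 2.56-fold, whereas no widely used subunit gene passed the test. The D subunit gene Vha36-3 and the F subunit gene Vha14-2, also other isoforms, passed narrowly, the latter within the control range. Thus 3 of 31 members rose and 0 fell (limma, Benjamini-Hochberg over 11982 genes, threshold 0.05). That share, 9.68%, was close to the 8.09% of all genes called in either direction. For rises alone the background was 4.36% and for falls 3.72%. Without adjustment, 4 members were higher and 2 lower at a p under 0.05, against 11.7% and 12.8% of all genes. The groups did not overlap for 6 members that were higher and 3 that were lower in the Sage embryos, where all genes gave 15.7% and 16.1%. The median log2 fold change was 0.06 over the 31 members and -0.01 over all genes. The members called rested on which arrays were used: leaving out wild type array 1 or any one Sage array left 1 gene, Vha100-5. Calls among all genes moved as well, from 199 to 856 rises and from 75 to 792 falls over the 6 fits without 1 array.

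**Figure D1:**
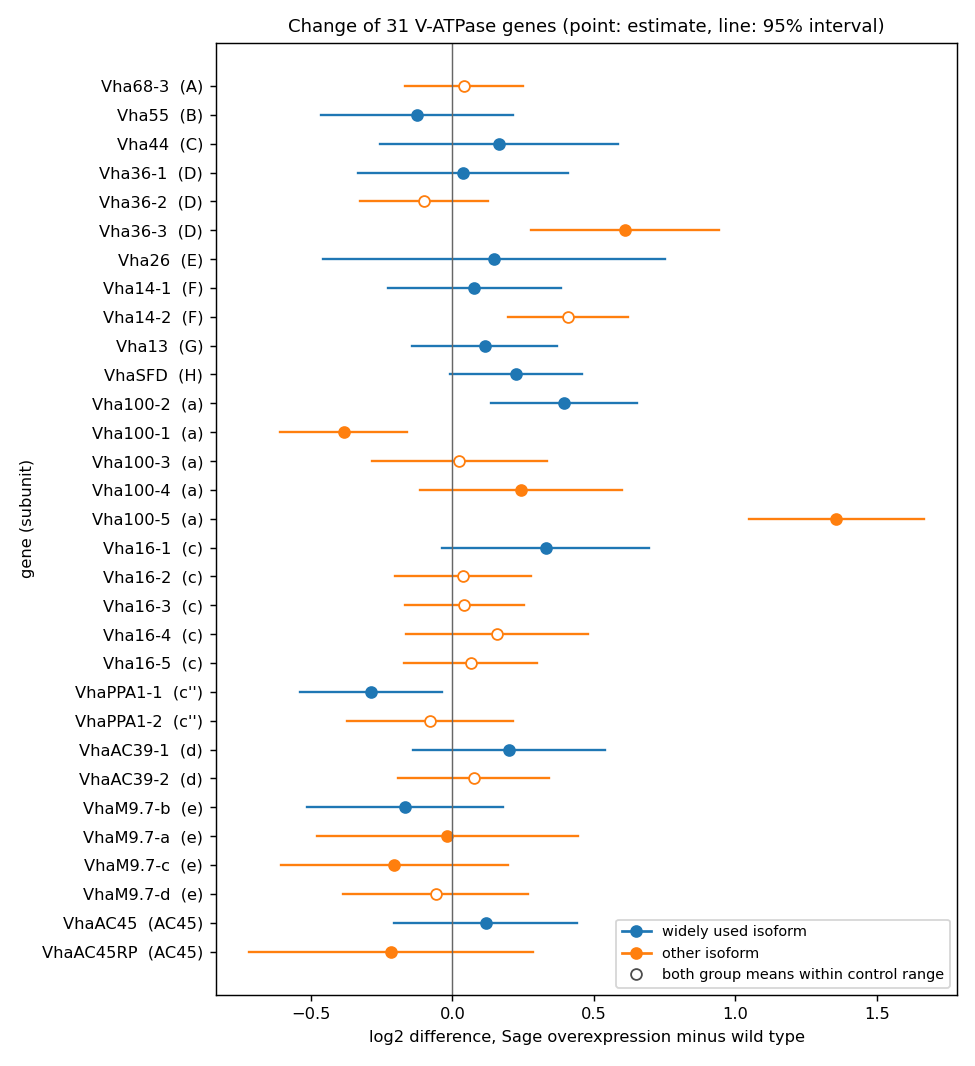
Log2 difference (Sage overexpression minus wild type, x axis) of the 31 V-ATPase genes (y axis, subunit in parentheses), with the limma estimate as a point and its 95% interval as a line. Open points mark genes with both group means within the control range; Vha100-5 lies at 1.36, and all others lie between -0.39 and 0.61.

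The a subunit holds the half-channels through which protons reach and leave the ring, and it carries the signals that place the pump on a given membrane. Vha100-5, on chromosome arm 2L, read 8.50, 8.51 and 8.82 in wild type arrays 1 to 3 and 9.87, 9.92 and 10.10 in Sage arrays 1 to 3. Every Sage array lay more than 1 log2 unit above every wild type array. Its log2 fold change was 1.36 (SE 0.13, 95% interval 1.05 to 1.67, limma adjusted p 0.0027), at rank 164 when the 11982 genes are ordered from the largest log2 fold change down. It passed whichever of the 6 arrays was left out, with log2 fold changes from 1.29 to 1.46 and adjusted p-values up to 0.025.

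The other a isoforms did not follow it by the test. Vha100-2, the widely used isoform, read 10.29, 10.07 and 10.19 in wild type and 10.45, 10.63 and 10.65 in the Sage embryos. These groups did not overlap, but the log2 fold change of 0.39 (SE 0.11) missed the threshold (limma adjusted p 0.077). Vha100-1, the isoform of neurons, where it acts in synaptic vesicle release and endolysosomal sorting, read 9.46, 9.51 and 9.58 in wild type and 9.08, 9.21 and 9.10 in the Sage embryos. Here every Sage array lay below every wild type array, with a log2 fold change of -0.39 (SE 0.09) and a limma adjusted p of 0.056. With array weights, a setting that raises wild type array 1 and Sage array 3 above the others, Vha100-2 and Vha100-1 both passed (adjusted p 0.013 and 0.0054). In the fit over all 18769 probe sets, where its estimate is the same, Vha100-1 also passed as a fall (limma adjusted p 0.0489).

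Vha100-4, known for acid secretion in the midgut, read 7.78, 7.73 and 7.48 in wild type and 7.73, 7.83 and 8.15 in the Sage embryos. The groups overlapped, and its log2 fold change was 0.24 (SE 0.15, limma adjusted p 0.38). Vha100-3 lay within the control range in both groups, with means of 4.45 and 4.48. Of the 5 a isoforms, then, 1 rose, 2 had groups that did not overlap without passing the test, 1 overlapped and 1 was not distinguishable from the controls. Vha100-4 and Vha100-2 are next to each other among protein-coding genes on arm 3R, whereas Vha100-5 lies on arm 2L.

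**Figure D2:**
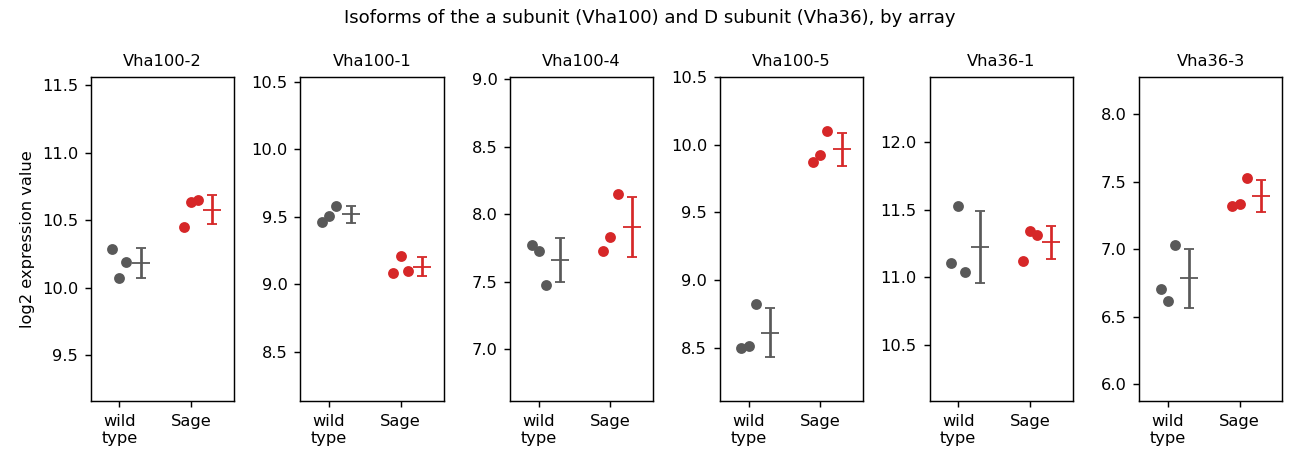
Log2 expression values (y axis, each panel spanning 2.4 log2 units around its own gene) of 4 a subunit and 2 D subunit isoforms, with 1 point per array, the bar at the group mean and whiskers of 1 SD (n = 3). Vha100-5 shows the widest separation of the groups (8.50 to 8.82 in wild type, 9.87 to 10.10 with Sage), Vha100-1 runs the other way, and Vha36-1 overlaps fully. Levels are not comparable between panels.

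Whether isoforms of 1 subunit changed by unequal amounts was examined from the gap between the isoform and the widely used isoform on each array. Relative to Vha100-2, Vha100-5 gained 0.96 on the log2 scale (SE 0.13), and Vha100-1 lost ground, with a difference in change of -0.78 (SE 0.10). Both had an exact two-sided permutation p of 0.1, the smallest that 3 arrays against 3 allow, and 0.21 after adjustment over 17 isoform pairs. The same permutation p was reached by Vha100-3, Vha14-2, Vha16-2, Vha16-3, Vha16-5 and VhaPPA1-2, all of them within the control range, so it does not set these pairs apart. Vha100-4 differed from Vha100-2 by -0.15 (SE 0.14, exact permutation p 0.4). With 3 arrays a group this permutation test cannot carry any isoform pair past a threshold of 0.05, so the sizes and SEs are the measure of these gaps.

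Markers of tissues in which such isoforms are known to act gave the following levels. The labels name whole embryos, and 7 of 8 measured nervous system markers, 9 of 13 of the Malpighian tubule and 9 of 9 of the midgut lay above the control range in at least 1 group. The 9 tubule genes include ct, Kr, byn and tsh, and the 4 within the range were NaPi-T, Oatp58Db, CG3690 and Irk2. Whether each marker is specific to its tissue in these embryos was not tested. Beside the lower Vha100-1, none of the 8 nervous system markers passed limma's threshold, and 0 were higher and 0 lower by unadjusted p-values under 0.05. Their median log2 fold change was 0.28. Their mean level overlapped between the groups (6.34 to 7.14 in wild type and 6.73 to 7.45 in the Sage embryos), but between arrays of the same number it was higher with Sage in 3 of 3 pairs, by 0.30, 0.39 and 0.33 on the log2 scale, opposite in direction to Vha100-1. The 3 gaps did not rest on the same genes. In pair 1 elav read 10.33 in wild type and 9.93 with Sage, in pair 2 10.03 and 9.79, and in pair 3 8.31 and 9.90. On wild type array 2 cac, cpx and Rab3 read 4.29, 7.16 and 7.52, against 5.58, 8.18 and 8.68 on Sage array 2. No test of the nervous system mean was made. Midgut markers had 2 of 9 members raised and 0 lowered, or 22.2% called against 8.09% of all genes in either direction. Their mean level ran from 6.77 to 7.23 in wild type and from 7.57 to 7.75 with Sage, without overlap. The rise of that mean rested largely on Mal-B1, Try29F and alphaTry. Over the 9 midgut markers 7 changes were positive and 2 negative, with a median of 0.42. The maltase gene Mal-B1 rose from 5.93 to 8.46 and the trypsin gene alphaTry from 5.93 to 7.08. Mal-A1, another maltase gene, ran the other way, from 6.29 to 5.50 with every Sage array below every wild type array (log2 -0.79, limma adjusted p 0.064). The replicate block gave more calls among all genes too, in both directions. With it 3 midgut markers rose, Try29F being added (limma adjusted p 0.038), and Mal-A1 fell (0.0497). Mal-A1 also passed without wild type array 1, and Try29F without Sage array 1. The part of midgut RNA in the rise of Vha100-5 was not tested. Malpighian tubule markers had 1 of 13 members raised, the chloride channel gene SecCl, and 2 lowered, Ork1 and Best1, or 23.1% called. Their mean level overlapped between groups (6.02 to 6.19 in wild type and 5.93 to 6.06 with Sage) but was lower with Sage in each of the 3 pairs, by -0.12, -0.08 and -0.05 on the log2 scale. With the block 2 rose, CG3690 being added, and the same 2 fell. The direction of the tubule mean rested largely on Ork1, which had the largest change of the list (log2 -1.49). Among the 13 tubule markers 6 changes were positive and 7 negative, with a median of -0.15. In whole embryos more cells of a type and more RNA per cell cannot be told apart.

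In the V1 sector the nucleotide-binding head is built from A and B subunits. Vha68-3, an isoform of the catalytic A subunit, lay within the control range, with group means of 3.87 and 3.91. Vha55, the B subunit, read 11.41, 10.97 and 11.37 in wild type and 11.14, 11.18 and 11.05 in the Sage embryos. These values overlap, and the log2 fold change was -0.12 (SE 0.14, limma adjusted p 0.66).

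The D and F subunits form the rotor stalk that turns inside the head. Vha36-3, an isoform of D encoded on the X chromosome, read 6.71, 6.62 and 7.03 in wild type and 7.32, 7.33 and 7.53 with Sage. All Sage arrays were above all wild type arrays, and the gene rose 1.53-fold (log2 0.61, SE 0.14, limma adjusted p 0.047). It lost the call in fits lacking wild type array 1 (adjusted p 0.12), any one Sage array (adjusted p up to 0.19) or both arrays numbered 2 (0.075), and also with median centring (0.055), trend and robust settings (0.068) or dim genes left out (0.060). Vha36-1, the widely used D isoform, read 11.10, 11.53 and 11.04 against 11.12, 11.35 and 11.31. Its log2 fold change was 0.04 (SE 0.16, limma adjusted p 0.92), and its sign turned with median centring. Vha36-3 gained 0.57 (SE 0.27) over Vha36-1, with an exact permutation p of 0.2. Vha36-2 lay within the control range, at 4.22 and 4.11.

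Vha14-2, the other isoform of F, read 4.74, 4.78 and 4.75 in wild type and 5.24, 5.13 and 5.13 in the Sage embryos. The rise passed (limma adjusted p 0.041), but all 6 values lie within the control range, so no fold is given. It did not pass with the replicate block (adjusted p 0.051), with median centring (0.064), without both arrays numbered 2 (0.053), or in any fit without 1 array except that without wild type array 2 (adjusted p up to 0.15). Vha14-1, the widely used F isoform, read 11.88, 12.27 and 12.01 in wild type and 12.05, 12.20 and 12.15 with Sage, a log2 fold change of 0.08 (SE 0.13). Markers of the male germ line, where some restricted subunit isoforms are known to be expressed, lay within the control range for 10 of 12 genes. None of the 12 passed in limma (by unadjusted p-values under 0.05, 0 higher and 3 lower), and their mean level was lower on the Sage arrays, at 4.23 to 4.41 against 4.57 to 4.72 in wild type. The fall of that mean rested mainly on twe, bam and bol (log2 -1.78, -0.97 and -0.76). The list median was -0.07, with 5 members positive and 7 negative. With the replicate block 2 of the 12 fell, twe and bol (limma adjusted p 0.020 and 0.012), both above the control range, and twe also passed without wild type array 2 or 3.

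The peripheral stalk, built from C, E and G, holds the head still while the rotor turns. Vha44, the C subunit, read 9.18, 8.64 and 9.22 in wild type and 9.30, 9.06 and 9.18 in the Sage embryos. Vha26, the E subunit, read 12.22, 11.48 and 12.49 and then 12.14, 12.22 and 12.28. For both genes the groups overlapped, and wild type array 2 was the lowest of the 6. Vha13, the G subunit, read 12.00, 12.02 and 12.12 in wild type and 12.00, 12.24 and 12.24 with Sage. The log2 fold changes of Vha44, Vha26 and Vha13 were 0.16, 0.15 and 0.11, with limma adjusted p-values of 0.64, 0.79 and 0.59. VhaSFD, the regulatory H subunit, read 10.74, 10.79 and 10.85 in wild type and 10.91, 11.11 and 11.04 with Sage. Its groups did not overlap, but its log2 fold change of 0.23 (SE 0.10) missed the threshold (limma adjusted p 0.22).

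**Figure D3:**
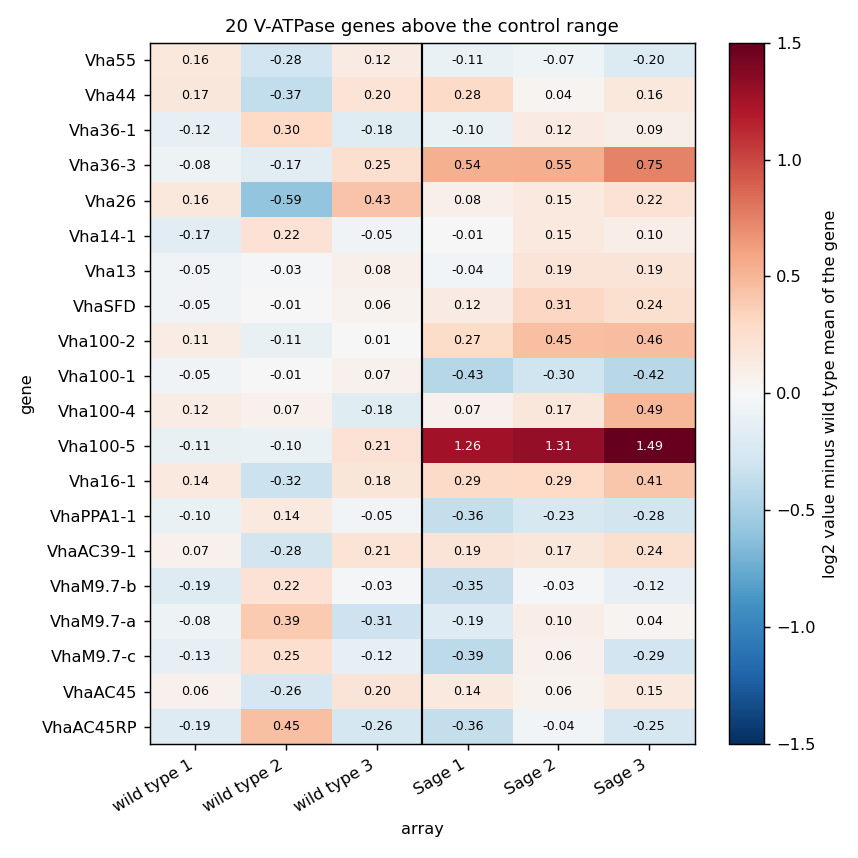
Log2 value of each gene on each array (columns) minus that gene's wild type mean, for the 20 V-ATPase genes (rows, ordered by subunit) above the control range; red is higher and blue lower, and the line divides the groups. The Vha100-5 row is high on all 3 Sage arrays, and wild type array 2 departs from the other wild type arrays in both directions, lowest for Vha26 and high for VhaAC45RP.

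In the V0 sector the c and c'' subunits form the ring that carries protons across the membrane. Vha16-1, the widely used c subunit, read 13.01, 12.55 and 13.05 in wild type and 13.15, 13.16 and 13.28 in the Sage embryos, with a log2 fold change of 0.33 (SE 0.15, limma adjusted p 0.25). The value was 0.17 without wild type array 2 and 0.11 with the gene's probe sets averaged. Its second, dimmer probe set read 10.54, 10.76 and 10.92 against 10.74, 10.53 and 10.60, a log2 difference of -0.12 (SE 0.12, adjusted p 0.68 over all probe sets). The probe sets of this gene thus disagreed in sign, and neither passed. The isoforms Vha16-2, Vha16-3, Vha16-4 and Vha16-5 all lay within the control range, with log2 differences from 0.04 to 0.16. VhaPPA1-1, the widely used c'' subunit, read 11.35, 11.59 and 11.40 in wild type and 11.09, 11.22 and 11.17 with Sage. Every Sage array was lower, but the log2 fold change of -0.29 (SE 0.10) did not pass (limma adjusted p 0.15). VhaPPA1-2 lay within the control range.

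The d subunit couples the ring to the rotor stalk. VhaAC39-1, its widely used isoform, read 10.60, 10.25 and 10.74 in wild type and 10.72, 10.70 and 10.77 in the Sage embryos, a log2 fold change of 0.20 (SE 0.14, limma adjusted p 0.46). VhaAC39-2 lay within the control range, at 4.76 and 4.83.

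The small membrane subunit e had 3 isoforms above the control range. VhaM9.7-b, the widely used one, read 11.54, 11.95 and 11.70 in wild type and 11.38, 11.70 and 11.61 with Sage. VhaM9.7-a read 9.16, 9.63 and 8.94 against 9.05, 9.34 and 9.28. VhaM9.7-c read 9.73, 10.10 and 9.73 against 9.47, 9.92 and 9.56. The groups overlapped for each, with log2 fold changes of -0.17, -0.02 and -0.21 and limma adjusted p-values of 0.55, 0.97 and 0.52. VhaM9.7-a turned positive with quantile normalization (0.03). VhaM9.7-d lay within the control range.

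The accessory subunit AC45 is a membrane protein that assists assembly and sorting of the pump. VhaAC45 read 11.49, 11.17 and 11.62 in wild type and 11.57, 11.48 and 11.58 with Sage. The related gene VhaAC45RP read 9.31, 9.96 and 9.24 against 9.14, 9.47 and 9.26. Both overlapped between groups, with log2 fold changes of 0.12 and -0.22 and limma adjusted p-values of 0.67 and 0.60. ATP6AP2, the other accessory subunit, no longer carries the Vha prefix and is not a member. It read 11.75, 11.87 and 11.78 in wild type and 11.72, 11.75 and 11.79 in the Sage embryos (limma adjusted p 0.81).

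Set side by side, widely used genes and other isoforms differed in how they were measured. All 13 widely used genes lay above the control range in both groups, with group means of 9.01 or higher. Among the 18 other isoforms 7 lay above it in at least 1 group and 11 within it, whereas 31.7% of all genes lay within it. All 3 calls fell among the other isoforms, 2 of them among the 7. No test of that difference was made. The median log2 fold change was 0.12 for the widely used genes and 0.04 for the other isoforms. The first ran from 0.060 to 0.215 when 1 array was left out, and the order turned without wild type array 2 (0.060 against 0.067) and without both arrays numbered 2 (0.062 against 0.082). None of the 13 passed in limma (by unadjusted p-values under 0.05, 1 higher and 1 lower), their estimates ran from -0.29 to 0.39, and their 95% intervals together spanned -0.54 to 0.75. By sector, 2 of 11 V1 genes rose (median 0.11) and 1 of 18 V0 genes rose (median 0.04), and no gene of either sector fell. Of all genes 4.36% rose. The V1 calls were the D and F isoforms that passed narrowly and lost the call in several other settings, the F isoform within the control range. The V0 call was the a isoform that passed in every setting run. No test between the sectors was made, and these few calls cannot rank them.

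Genes that work with the pump or beside it had calls in each related list, all of them falls in the fit reported above. Some other settings, the replicate block among them, added rises. With array weights 4 lysosome and 4 ion transport genes rose. Quantile normalization raised 1 ion transport gene, and trend and robust settings 1 lysosome gene. Without these settings the share called was 20% for assembly and regulation, 9.52% for the lysosome, 12.5% for ion transport and 7.69% for the mitochondrial ATP synthase. Of all genes 8.09% were called in either direction and 3.72% as falls. Of 5 measured genes for assembly and regulation 0 rose and 1 fell. This was Rbcn-3B, a WD-repeat subunit of the Rabconnectin-3 complex that promotes V-ATPase activity, which read 8.66, 8.80 and 8.46 in wild type and 7.90, 8.17 and 7.90 with Sage. The groups did not overlap, and the level fell 1.57-fold (log2 -0.65, SE 0.13, limma adjusted p 0.035). This call ended without wild type array 1 or any one Sage array (adjusted p up to 0.16), with quantile normalization, and with trend and robust settings. Mitf, the helix-loop-helix factor that controls V-ATPase and lysosome genes in flies, read 6.25, 4.76 and 5.93 in wild type and 5.71, 5.17 and 5.43 in the Sage embryos. Those values overlapped, with a log2 fold change of -0.21 (SE 0.38, limma adjusted p 0.80).

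Lysosomal genes, whose products depend on the acid the pump makes, had 2 of 21 measured members lowered and 0 raised (median log2 fold change -0.04). With the replicate block 4 were lowered and 1 was raised, in a setting that gave more calls among all genes in both directions. The protease gene cathD (cathepsin D) read 10.85, 11.36 and 11.08 in wild type and 9.88, 10.01 and 9.88 with Sage. It fell 2.26-fold (log2 -1.17, SE 0.14, limma adjusted p 0.0067). Ppt1, a thioesterase that removes palmitate from proteins, fell 2.0-fold, from 7.80 ± 0.15 (SD, n = 3) to 6.80 ± 0.13 (limma adjusted p 0.0064). For both genes every Sage array lay below every wild type array, and both passed whichever array was left out.

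Among 16 measured ion transport genes 0 rose and 2 fell, with a median of 0.07, and with the replicate block 2 rose and 2 fell. The Na+/K+-ATPase beta subunit gene nrv2 fell 2.43-fold, from 10.75 ± 0.18 to 9.47 ± 0.29 (SD, n = 3, limma adjusted p 0.0091), but with Sage array 3 left out its adjusted p was 0.057. Irk3, an inward rectifier potassium channel gene, fell 1.82-fold, from 6.45 ± 0.39 to 5.59 ± 0.04 (adjusted p 0.048). Leaving out wild type array 1 or any one Sage array ended that call (adjusted p up to 0.18). The mitochondrial F-type ATP synthase, the other rotary ATPase of the cell, had 1 of 13 members lowered and 0 raised, with a median of -0.15. Its catalytic subunit gene ATPsynbeta read 12.81, 12.61 and 12.95 in wild type and 11.91, 11.73 and 11.87 with Sage, and fell 1.94-fold (limma adjusted p 0.0071), passing whichever array was left out. The falls of cathD, Ppt1, nrv2 and ATPsynbeta, at log2 values of -1.17, -1.0, -1.28 and -0.95, stand beside differences of -0.87 to -1.48 in 5′ control probe sets of actin, GAPDH and eIF-4a and of -0.05 to -0.59 in their 3′ control probe sets. The part of RNA quality in these falls was not tested.

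**Figure D4:**
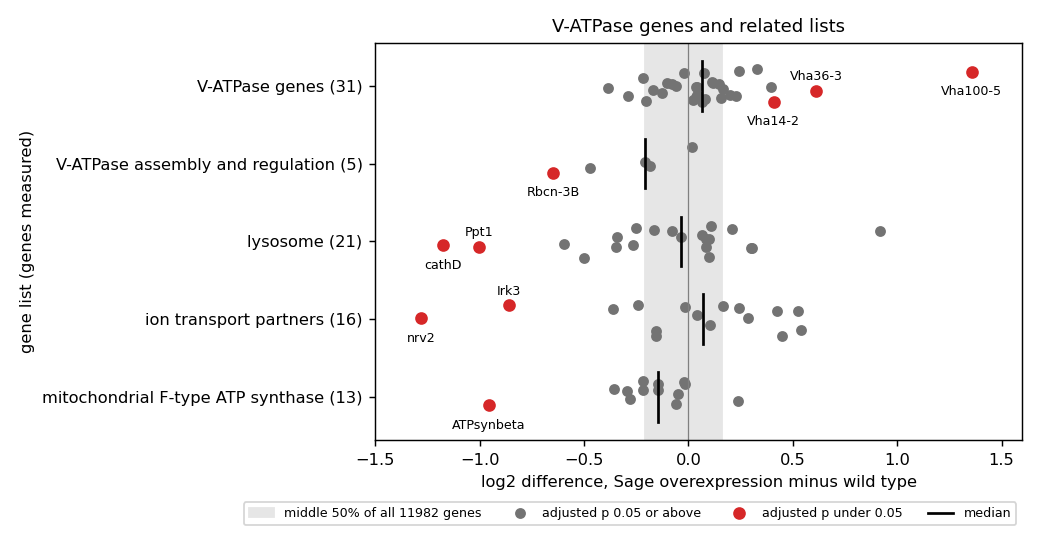
Log2 difference (Sage overexpression minus wild type, x axis) of each measured gene in the V-ATPase set and 4 related lists (y axis, vertical scatter within a list has no meaning), with black bars at the medians and the grey band over the middle 50% of all 11982 genes (-0.21 to 0.16). Red points passed the limma threshold; those of the V-ATPase set lie at 0.41, 0.61 and 1.36 and those of the other lists at -0.65 or below.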

How the data were processed

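Per the labels' protocols, total RNA was labelled with a 3′ IVT kit and hybridised to 1 Affymetrix array per sample. RMA and Partek are named, with no version, per the submitters' processing notes. The deposited values were taken as log2 from their range and near-equal array means; scale and centring are not stated. Of 18952 probe sets, 183 controls were set aside. The platform annotation pairs 13647 probe sets with 1 gene and 402 with several, and 4720 tested ones are unnamed. Gene symbols and chromosome arms of all 31 members were found in the Release 6 gene table. The groups were compared with limma 3.58.1 (R 4.3.3, lmFit, eBayes, two-sided, Benjamini-Hochberg over all genes, threshold 0.05). The fit was first run on simulated data with independent noise for each gene. That run cannot show how the fit handles deviations that genes share on an array.

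Members, isoform classes, lists and tests were chosen with earlier results of these data known. Every member is accounted for; from each related list the members past the threshold are named, and Mitf, and the markers that passed with the replicate block alone, were added after their values were seen. Samples numbered alike deviated together from their group means (r = 0.39, 0.67 and 0.33 across probe sets, and 0.43 for wild type 3 with Sage 1); the numbers are taken as pairs on these values alone, since the labels do not say what they share. Alternatives were median centring, quantile normalization, dim genes left out, trend and robust eBayes, array weights, the replicate block, averaging a gene's probe sets, an adjusted p under 0.01, leaving out each array, and leaving out both arrays numbered 2. Promoter motifs were not examined. Figures used Python 3.11.15, pandas 2.3.3 and matplotlib 3.10.9.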

Additional observations from a re-analysis of the deposited data

How the results depend on the processing

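The count of raised V-ATPase genes, 3, became 1 at an adjusted p under 0.01, with dim genes left out (20 members tested), with median centring and without both arrays numbered 2, and 6 with array weights, and ranged from 1 to 3 when 1 array was left out. The count of lowered genes stayed at 0 except with array weights, where it was 3 (Vha55, Vha100-1 and VhaPPA1-1); in the fit over all probe sets it was 1, Vha100-1 (limma adjusted p 0.0489). The weights were 3.73 for wild type array 1, 3.92 for Sage array 3 and 0.17 for wild type array 2. Array weights also added calls outside the V-ATPase genes. The lysosome list went from 0 raised and 2 lowered to 4 and 6, and the ion transport list from 0 and 2 to 4 and 3. The count over all genes in that setting is not given here. Over the 6 fits without 1 array, all genes gave 199 to 856 rises and 75 to 792 falls. With the replicate block 2 members rose, Vha100-5 and Vha36-3, Vha14-2 lost its call, and the block changed no other member's call. Among all genes 881 rose and 886 fell with the block, against 523 and 446 without. Vha100-5 passed in every setting run, the adjusted p under 0.01 included.

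Signs of small differences were not stable. Leaving out 1 array, the log2 fold change ran from -0.00715 to 0.187 for Vha14-1, from -0.146 to 0.362 for Vha26, from -0.0552 to 0.189 for Vha36-1, from -0.0212 to 0.266 for Vha44, from -0.0110 to 0.215 for VhaAC45, from -0.347 to 0.0104 for VhaAC45RP and from -0.172 to 0.175 for VhaM9.7-a. The difference in change ran from -0.562 to 0.0214 for VhaAC45RP against VhaAC45 and from -0.105 to 0.0306 for VhaM9.7-c against VhaM9.7-b. Without both arrays numbered 2, Vha26 had -0.15, VhaM9.7-a 0.12 and Vha100-4 against Vha100-2 0.0023. Median centring gave Vha36-1 -0.00064, quantile normalization gave VhaM9.7-a 0.0267, and array weights gave VhaM9.7-a 0.10 and VhaM9.7-b 0.0023. Their causes were not tested. Probe sets within the control range bound what can be said of 11 members.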

Other observations

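Wild type array 2 departed from the other wild type arrays in both directions for V-ATPase genes. Among the 13 widely used genes it gave the lowest of the wild type values for 7 and the highest for 4. Vha26, Vha44, Vha16-1, Vha55, VhaAC39-1 and VhaAC45 were 0.26 to 0.59 below their wild type means on this array. Over all 31 members array 2 was the lowest wild type array for 9 and the highest for 15, where all genes gave 32.6% and 50.7%.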
